A study of Mus musculus with 8 samples.

Results

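The Polycomb group proteins were examined through 10 genes, Ezh2, Eed, Suz12, Jarid2, Mtf2, Phf19, Rnf2, Ring1, Rybp and Cbx7, listed by name as parts of the Polycomb complexes. Every probe set annotated to one of them was read on all 8 arrays. Of 45037 probe sets without controls, 29 carried the symbol of 1 member alone and stood for 9 of the 10 genes, and all 29 were among the 43439 tested. Rybp had 2 probe sets, both also annotated to Rybp-ps, its pseudogene, so their values cannot be assigned to Rybp and are given apart. No member's difference between genotypes or with LIF passed the test. For the bright probe sets of Ezh2, Eed, Suz12, Jarid2, Mtf2 and Rnf2 the 95% intervals lay within 0.606 to 1.70-fold, while those of Ring1 were far wider. This holds for genotype averaged over LIF and for LIF withdrawal averaged over genotype. Such intervals, from 2 arrays per group, do not show that levels were equal.

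Polycomb proteins keep genes silent through chromatin. Polycomb repressive complex 2 is built on Ezh2, Eed and Suz12 and methylates histone H3 at lysine 27, and complex 1 is built on the ubiquitin ligases Rnf2 and Ring1 and ubiquitinates histone H2A. In mouse embryonic stem cells both complexes sit on the promoters of developmental regulators that are silent until differentiation. Rex-1, the product of Zfp42, is a relative of YY1, whose fly counterpart recruits Polycomb complexes to DNA.

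The cells were J1 mouse embryonic stem cells, the wild type and control, and J1-derived cells labelled Rex-1 knockout, each grown on gelatin in serum medium with or without LIF (leukemia inhibitory factor). This cytokine, acting through STAT3, supports self-renewal. There were 4 groups of 2 arrays: J1 with LIF, J1 without LIF, knockout-labelled with LIF and knockout-labelled without LIF. A time of 12 hours without LIF stands in the extraction text of all arrays alike, and for the knockout-labelled arrays without LIF the growth text mentions added LIF, against their titles and treatment text, which were followed. How many knockout clones were used is not stated. The arrays of a group are called first and second here, second being the one whose title ends in the letter r, and the meaning of that letter is not explained. The series text calls the arrays biological replicates but names no separate cultures, so a p-value here reflects only how far these arrays differ. In bulk RNA, fewer cells with a transcript and less of it per cell cannot be told apart.

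Array medians ran from 114.2 to 143.5 signal units, with the highest on the second knockout-labelled array with LIF. The targeted gene Zfp42 remained bright on every array, with a log2 difference, knockout minus J1, of -0.21 (SE 0.16). It gave 16730 to 18000 signal units on the knockout-labelled arrays and 18220 to 23260 on the J1 arrays. The lines did not overlap, against 1.74% of all probe sets wholly below. No source used here says whether the Zfp42 probe set reads the deleted stretch, so it checks nothing and the genotype is that of the labels. The mean log2 signal of 12 embryonic stem cell markers lay between 12.39 and 12.71 on each array. Over the arrays the means were 6.84 to 8.49 for 10 fibroblast or feeder markers, 7.02 to 7.64 for 8 extraembryonic endoderm markers and 6.17 to 7.69 for 8 trophoblast markers. The fibroblast or feeder mean stood apart on the first J1 arrays, at 8.25 with LIF and 8.49 without it, against 6.84 to 7.68 on the other 6 arrays. Tagln, a smooth muscle actin-binding protein, gave 12.24 and 12.12 on those arrays and 5.09 to 9.45 elsewhere. Col1a1, Col1a2 and Acta2 were likewise higher on both of those arrays than on every other array. The remaining markers of the list, Col3a1, Thy1, Lum, Dcn, Postn and Fn1, were not. In the averaged genotype contrast 8 of the 10 fibroblast or feeder markers had a negative value, with a median of -0.42, and 1 had an unadjusted p under 0.05. Over all genes the median was 0.01, 51.9% were positive and 4.63% had such a p. The extraembryonic endoderm mean was 7.40 to 7.64 on the knockout-labelled arrays and 7.02 to 7.33 on the J1 arrays, without overlap. Of its 8 markers 6 had a positive genotype value, with a median of 0.295. An unadjusted p under 0.05 was reached by 2 of the 8, against the same 4.63% of all genes. They were Sox17 at 0.84 (SE 0.19), at a mean log2 of only 6.42, and Sox7 at 0.80 (SE 0.29).

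For LIF withdrawal 9 of the 12 stem cell markers had a negative value, with a median of -0.12. An unadjusted p under 0.05 was reached by 4 of the 12, against 3.22% of all genes: Klf4 at -0.85 (SE 0.24), Tdgf1 at -0.50 (SE 0.16), Tfcp2l1 at -0.46 (SE 0.16) and Esrrb at -0.42 (SE 0.17). These pluripotency genes were lower on all 4 arrays without LIF than on all 4 with it, against 1.33% of all probe sets. By limma 0 genes of any marker list were called. The marker genes here were named after their values were seen, and the part of these lists in the Polycomb values was not tested.

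Promoter sequence was read for the members from RefSeq (GRCm38.p6), as windows from 250 bases before to 50 after an annotated start. The table held 11 windows for 9 members. A motif of the YY1 type, AANATGGC, was searched on both strands because the study targets a YY1 relative, and TTCNNNGAA, a STAT-type motif, because LIF acts through STAT3. The YY1-type letters were found in 2 of the 11 windows, those of Phf19 and Jarid2, against 6.05% of all 32851 windows. The STAT-type letters were found in 0 of the 11, against 8.30% of all windows. The 2 windows with a match are shown for the 250 bases before the start, 5′ to 3′ on the gene's strand, with the match in capitals. The match began 192 bases before the start in Phf19, on the gene's strand, and 14 bases before it in Jarid2, on the opposite strand. A match describes letters and shows no binding.
Phf19, chr2:34913977-34914226, minus strand: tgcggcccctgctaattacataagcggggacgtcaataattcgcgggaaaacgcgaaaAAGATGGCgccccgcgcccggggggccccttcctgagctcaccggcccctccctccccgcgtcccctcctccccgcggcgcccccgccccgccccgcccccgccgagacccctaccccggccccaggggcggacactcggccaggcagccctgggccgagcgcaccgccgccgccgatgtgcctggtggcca
Jarid2, chr13:44730524-44730773, plus strand: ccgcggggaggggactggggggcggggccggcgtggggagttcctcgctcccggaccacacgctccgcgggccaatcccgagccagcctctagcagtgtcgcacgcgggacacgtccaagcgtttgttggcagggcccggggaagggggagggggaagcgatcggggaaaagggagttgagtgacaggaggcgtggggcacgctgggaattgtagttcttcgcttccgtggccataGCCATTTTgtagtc

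Signals are given on the log2 scale, and a gene is described first by its probe set of highest mean. Differences come from 1 limma fit to all probe sets, with a standard error (SE), a 95% interval and a Benjamini-Hochberg adjusted p over all 43439. A probe set was called at an adjusted p under 0.05. Levels of different probe sets are not compared, since each binds its target with its own strength.

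**Figure D1:**
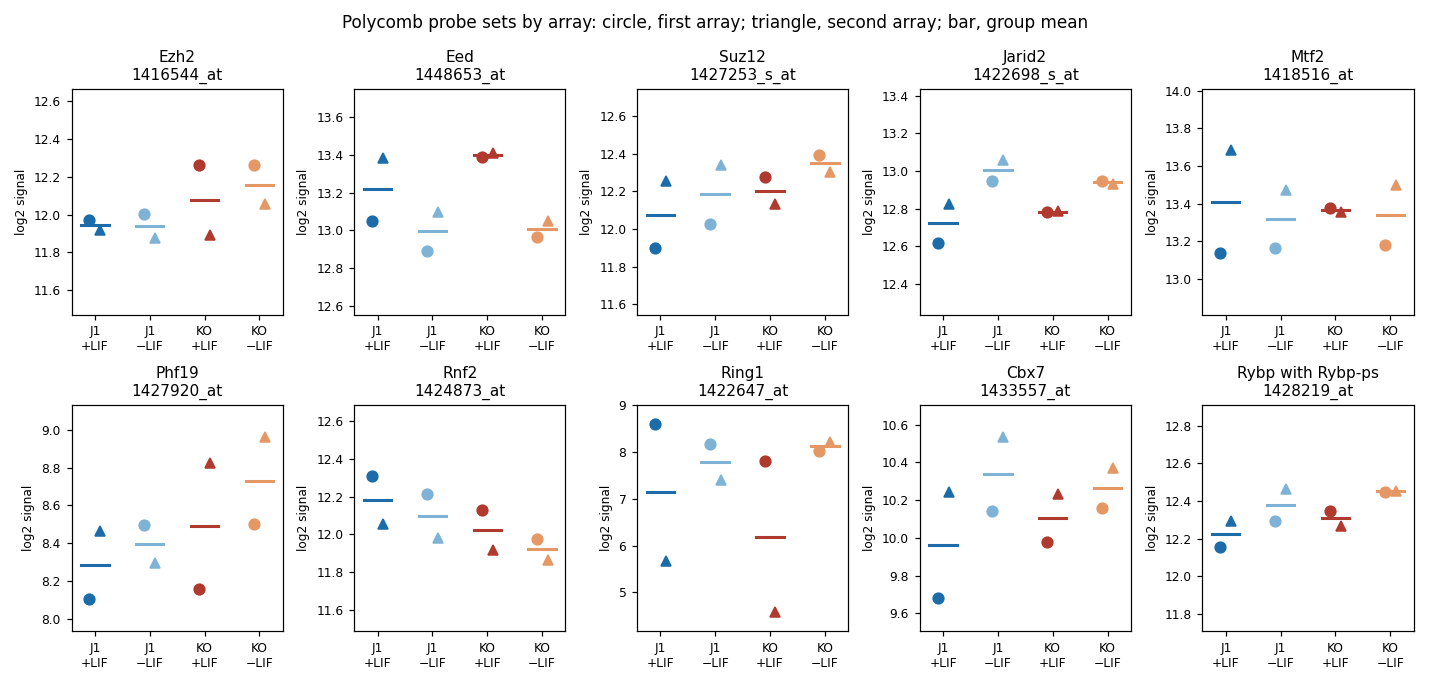
Log2 signal of the probe set of highest mean for 9 Polycomb genes and of the brighter probe set shared by Rybp and Rybp-ps, for each array of the 4 groups (circle, first array; triangle, second array; bar, group mean; each panel has its own scale). Arrays of one group often lie as far apart as the groups do, and Ring1 spans 4.58 to 8.61.

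None of the 3 core genes of complex 2 was called in any contrast, and their brightest probe sets had averaged genotype differences of 0.10 to 0.18. Ezh2, the histone methyltransferase itself, gave 11.97 and 11.92 in J1 cells with LIF and 12.00 and 11.88 without it. In the knockout-labelled cells it gave 12.26 and 11.89 with LIF and 12.26 and 12.05 without it. The first knockout-labelled arrays were thus the highest, and the second one with LIF lay below 3 of the 4 J1 arrays. The averaged genotype difference was 0.18 (SE 0.17), a fold of 1.13 with a 95% interval of 0.841 to 1.52 (limma adjusted p = 0.990). For LIF withdrawal the averaged difference was 0.04 (SE 0.17), with an interval from -0.39 to 0.47. The groups ran in the order knockout without LIF, knockout with LIF and then both J1 groups, and no neighbours in that order differed beyond the spread of their arrays.

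Eed, the subunit that binds the finished methyl mark, had 13.05 and 13.39 in J1 cells with LIF and 12.89 and 13.10 without it. In knockout-labelled cells it had 13.39 and 13.41 with LIF and 12.96 and 13.05 without. The 4 arrays without LIF were mostly the lower ones, but the first J1 array with LIF lay among them, so the groups overlapped. The averaged LIF difference was -0.31 (SE 0.17), with an interval from -0.72 to 0.11 (limma adjusted p = 0.9999). The J1 cells alone gave -0.22 (SE 0.24), and the knockout-labelled cells alone gave -0.39 (SE 0.24). A second, dimmer Eed probe set, 1453830_at, had the opposite value, 0.84, at a mean log2 of only 5.56. The genotype difference of the brighter probe set was 0.10 (SE 0.17).

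Suz12, the subunit that holds the enzyme complex together, had 6 probe sets. Its brightest gave 11.90 and 12.25 in J1 cells with LIF, 12.03 and 12.34 without it, 12.28 and 12.13 in knockout-labelled cells with LIF and 12.39 and 12.30 without. The J1 arrays spanned the knockout-labelled ones almost entirely. The averaged genotype difference was 0.15 (SE 0.18), and the other bright probe sets, 1420021_s_at and 1452364_at, gave 0.17 and 0.24. Across the 6 probe sets the value ran from -0.34 to 0.24, with 4 positive and 2 negative. The lowest came from 1420020_at, which was at 5.54 on the second knockout-labelled array with LIF against 7.39 to 8.75 on the other arrays. LIF withdrawal gave 0.12 (SE 0.18) on average.

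The accessory proteins guide complex 2 to its sites. Jarid2, a DNA-binding partner needed for its placement in embryonic stem cells, gave 12.62 and 12.83 in J1 cells with LIF and 12.95 and 13.06 without it. In knockout-labelled cells it gave 12.78 and 12.79 with LIF and 12.95 and 12.93 without. Every array without LIF lay above every array with LIF. The same held narrowly for a second Jarid2 probe set, 1450710_at, with 11.97 to 12.1976 with LIF against 12.2027 to 12.39 without it. The third, 1422697_s_at, overlapped. These were the only 2 of the 29 Polycomb probe sets without overlap for LIF, both higher without it, against 1.02% of all probe sets wholly above and 1.33% wholly below. Since they read the same transcript they count as 1 gene. The averaged LIF difference was 0.22 (SE 0.15), a fold of 1.16 with an interval of 0.895 to 1.51, and limma did not call it (adjusted p = 0.9999). The exact permutation of 4 against 4 arrays gave p = 0.0286, two-sided, the smallest it can give, and 1.00 after adjustment over all probe sets. All 3 probe sets had a positive LIF value, from 0.11 to 0.22. Between genotypes the first probe set differed by -0.0001 (SE 0.15), with an interval from -0.38 to 0.38.

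Mtf2, a Tudor domain protein that brings complex 2 to unmethylated CpG islands, had 6 probe sets. The brightest gave 13.14 and 13.68 in J1 cells with LIF, 13.16 and 13.47 without it, 13.38 and 13.35 in knockout-labelled cells with LIF and 13.18 and 13.50 without. The 4 group means lay within 0.09 of each other. Its differences were -0.01 (SE 0.21) for genotype and -0.06 (SE 0.21) for LIF withdrawal. Over all 6 probe sets the genotype value ran from -0.09 to 0.22 and the LIF value from -0.06 to 0.22.

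Phf19, the close relative of Mtf2 that binds methylated histone H3 lysine 36, gave 8.10 and 8.46 in J1 cells with LIF and 8.50 and 8.30 without it. In knockout-labelled cells it gave 8.16 and 8.83 with LIF and 8.50 and 8.96 without. The second knockout-labelled arrays were the highest, while the first ones lay within the J1 range or, without LIF, at its upper edge (362.0 against 361.1 signal units). The averaged genotype difference was 0.27 (SE 0.24), with an interval from -0.32 to 0.87, and a dimmer probe set, 1431857_at, gave 0.42. For LIF withdrawal the values of these 2 probe sets were 0.18 and -0.36.

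Complex 1 was described by its ligases and its chromodomain protein. Rnf2, also called Ring1B and the main ligase in embryonic stem cells, gave 12.31 and 12.06 in J1 cells with LIF and 12.21 and 11.98 without it. In knockout-labelled cells it gave 12.13 and 11.92 with LIF and 11.98 and 11.87 without. The second array was lower than the first in every group. The averaged genotype difference was -0.17 (SE 0.17), a fold of 0.891 with an interval of 0.666 to 1.19 (limma adjusted p = 0.992). The next brightest probe set, 1451519_at, gave 0.02, and the mean over all 5 probe sets was 0.07. LIF withdrawal gave -0.09 (SE 0.17).

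Ring1, the second ligase, had 1 probe set and gave 8.61 and 5.68 in J1 cells with LIF and 8.16 and 7.39 without it. In knockout-labelled cells it gave 7.80 and 4.58 with LIF and 8.03 and 8.21 without. The second arrays with LIF were low in both lines, at a second-minus-first difference of -2.93 and -3.23. Their signals were 51.2 and 23.8 units against 389.5 and 223.0. The averaged LIF difference of 1.28 (SE 0.94) had an interval from -1.05 to 3.62 and moved with those arrays. Leaving out the second array with LIF gave 0.48 for the knockout-labelled line and 0.55 for J1. The genotype difference was -0.31 (SE 0.94). Among the knockout-labelled arrays with LIF, leaving out the second gave 0.50 and the first -1.11. Among the J1 arrays with LIF, leaving out the first gave 0.43 and the second -1.04.

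Cbx7, the chromodomain subunit of complex 1 typical of undifferentiated cells, gave 9.68 and 10.24 in J1 cells with LIF and 10.14 and 10.53 without it. In knockout-labelled cells it gave 9.98 and 10.23 with LIF and 10.16 and 10.37 without. The averaged LIF difference was 0.27 (SE 0.22), with an interval from -0.26 to 0.80. The genotype difference was 0.04 (SE 0.22) here but -0.60 (SE 0.34) in a second probe set, 1420039_s_at, and -0.21 in the third, 1449713_at. In 1420039_s_at the J1 arrays gave 7.66, 8.40, 7.83 and 8.31 and the knockout-labelled arrays 7.02, 8.05, 7.11 and 7.62, so the lines overlapped. The 3 probe sets thus disagree on the direction of the genotype difference.

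Rybp, a subunit of the variant complex 1 that works without Cbx proteins, could be read only together with Rybp-ps. The brighter shared probe set, 1428219_at, gave 12.16 and 12.29 in J1 cells with LIF, 12.30 and 12.46 without it, 12.35 and 12.27 in knockout-labelled cells with LIF and 12.45 and 12.46 without. Its differences were 0.08 (SE 0.15) for genotype and 0.15 (SE 0.15) for LIF withdrawal. The other, 1421111_at, gave 0.10 and -0.08.

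**Figure D2:**
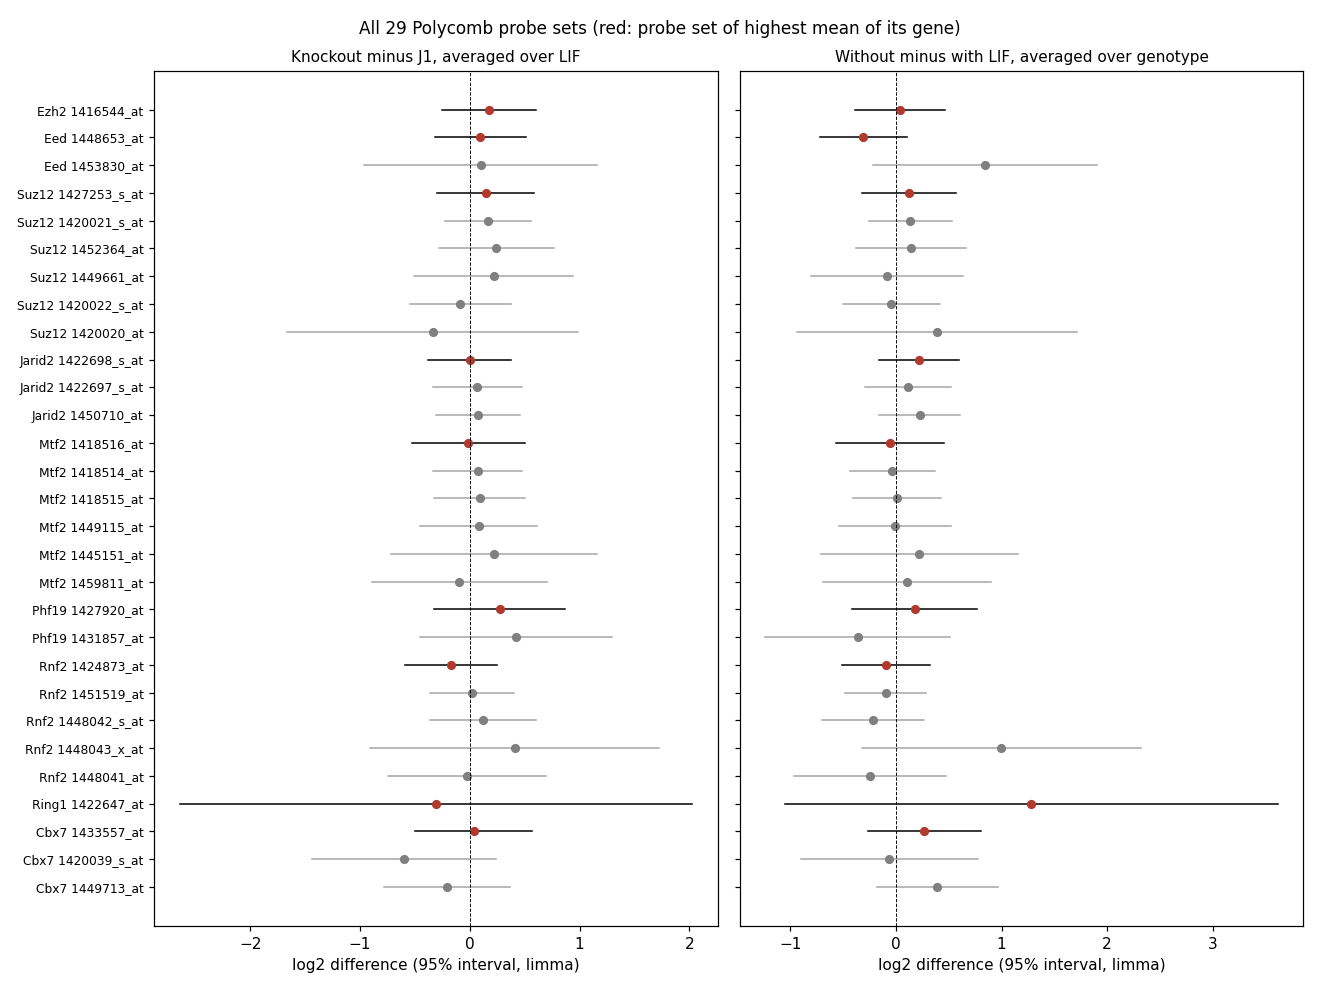
Log2 difference with its 95% interval from limma for the 29 Polycomb probe sets, knockout minus J1 (left) and without minus with LIF (right), each averaged over the other factor (red point on a black line, probe set of highest mean of its gene; grey, its other probe sets). Every interval includes 0, and the widest are those of Ring1, followed by Suz12 1420020_at and Rnf2 1448043_x_at.

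Counted together, 0 of the 29 Polycomb probe sets were called in any of the 7 contrasts, where the background was also 0% of all 43439. At an unadjusted p under 0.05 there were 2 of 29 for LIF withdrawal in J1 cells, against 3.61% of all probe sets, and 0 in each of the other 6 contrasts. The background there was 5.02% for genotype with LIF, 3.68% for genotype without LIF and 5.27% for genotype on average. It was 4.07% for LIF withdrawal in the knockout-labelled cells, 4.02% for LIF withdrawal on average and 3.55% for the interaction. The 2 probe sets were dim ones. Rnf2 1448043_x_at had 4.09 and 4.47 with LIF against 6.13 and 6.29 without it in J1 cells, and Eed 1453830_at had 5.45 and 3.96 against 6.65 and 5.98. In the knockout-labelled cells the same probe sets gave LIF differences of 0.07 and 0.08, and their interaction values were not called. For genotype 0 of the 29 had all 4 knockout-labelled arrays above or below all 4 J1 arrays, against 2.1% and 1.74% of all probe sets.

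Bright members were measured more precisely than dim ones. At a mean log2 of at least 10 there were 15 Polycomb probe sets, and their averaged genotype differences lay between -0.17 and 0.24, with 12 positive and 3 negative and a median of 0.08. Over all 6516 probe sets of that level the median was -0.02 and 43.8% were positive. Several of the 12 read the same gene, so they are not independent. The averaged LIF differences of these 15 lay between -0.31 and 0.27, with a median of 0.04 against -0.0037 for all probe sets of that level. No interval among the 15 reached below a fold of 0.606 or above 1.75 for either averaged difference. The 14 dimmer probe sets differed in this. Ring1 had the widest interval, from 0.161 to 4.08-fold for genotype and from 0.483 to 12.3-fold for LIF. For Rnf2 1448043_x_at it ran from 0.802 to 4.98-fold for LIF, while Suz12 1420022_s_at was bounded between 0.684 and 1.29-fold for genotype.

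The interaction asked whether LIF withdrawal acted differently in the knockout-labelled cells. For the 9 genes taken by their brightest probe set it ran from -0.22 for Cbx7 to 1.30 for Ring1. The smallest unadjusted p among them was 0.518, from Ring1, and limma called 0. For Ezh2 the value was 0.08 (SE 0.34), with an interval from -0.77 to 0.94, and for Suz12 it was 0.04 (SE 0.36). Over all 29 probe sets it ran from -1.86 for Rnf2 1448043_x_at to 2.62 (SE 1.07) for Suz12 1420020_at, both among the dimmer ones. The smallest unadjusted p from limma over the 29 was 0.052, from the latter, and 0 were called.

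**Figure D3:**
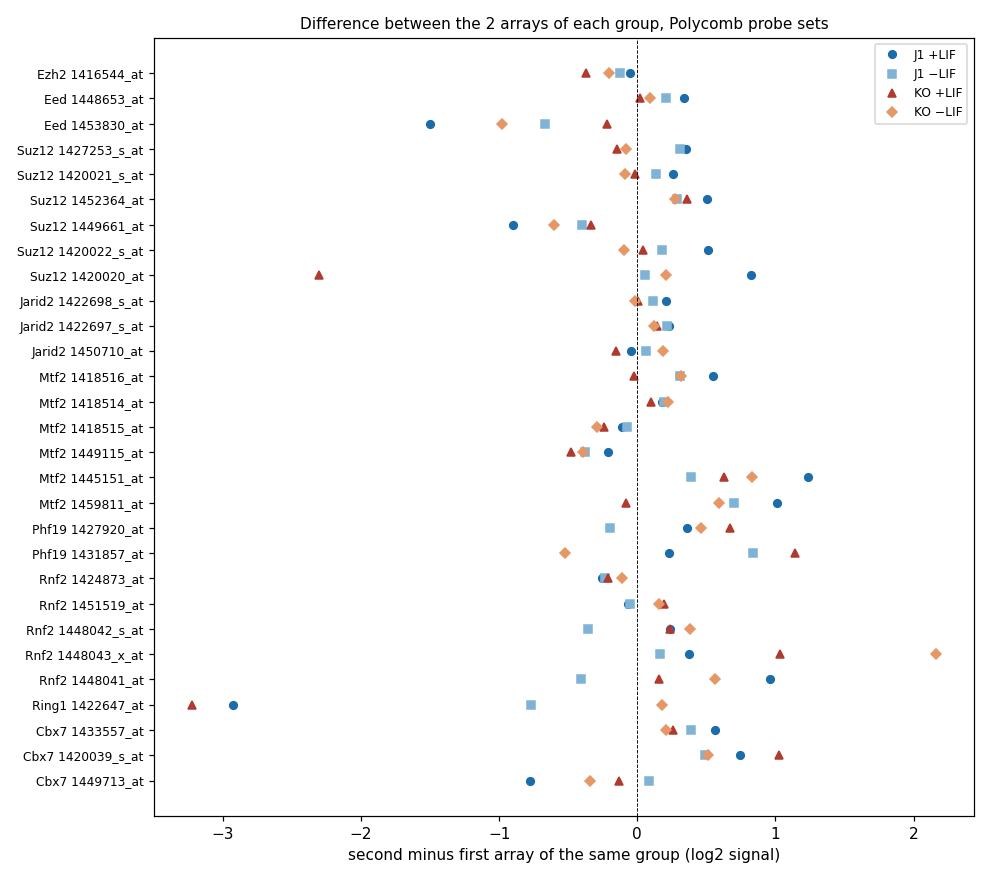
Second minus first array of the same group, in log2 signal, for the 29 Polycomb probe sets (1 symbol per group). The 4 symbols lie on one side of 0 for 14 probe sets, 8 to the right and 6 to the left, and Ring1 reaches -3.23 in the knockout-labelled cells with LIF.

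The 2 arrays of a group differed in a repeated way in many Polycomb probe sets. In 8 of the 29 the second array was above the first in all 4 groups, against 16.7% of all probe sets, and in 6 it was below in all 4, against 11.2%. Among the 15 bright ones the counts were 5 and 4, against 27.4% and 22.1% of all probe sets of that level. Probe sets of 1 gene could go opposite ways. Mtf2 1449115_at was lower on the second array by -0.21, -0.38, -0.48 and -0.39 in J1 cells with and without LIF and knockout-labelled cells with and without LIF, in that order. Mtf2 1418514_at was higher there by 0.18, 0.19, 0.10 and 0.22. Their genotype differences were 0.08 and 0.07.

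Arrays of the same letter were therefore also set against each other. The knockout-labelled array was above the J1 array of its letter and LIF state in all 4 such pairs for 5 of the 29 Polycomb probe sets, against 9.19% of all probe sets, and below it in all 4 for 2, against 8.09%. The 2 were Cbx7 1420039_s_at, with differences of -0.64 and -0.35 with LIF and -0.72 and -0.69 without it, and Rnf2 1424873_at, with -0.18, -0.14, -0.24 and -0.11. Among the 5 was Suz12 1452364_at, with 0.28, 0.13, 0.29 and 0.28. The array without LIF was above its counterpart with LIF in all 4 pairs for 7 of the 29, against 7.56%, and below it for 3, against 8.04%. All 3 Jarid2 probe sets were among the 7 and the brighter Eed probe set among the 3. Probe sets of 1 gene are not independent, and the labels do not say that the letter pairs arrays.

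The other genes of the pathway were taken as lists. Of 8 further complex 2 genes, all 8 were measured and 0 were called in any contrast. Their median averaged genotype difference was 0.19, with 5 positive and 3 negative, against 0.01 over 17836 genes. Ezh1, the second methyltransferase, had -0.05 (SE 0.18) for genotype and 0.17 (SE 0.18) for LIF. The genes of smallest unadjusted p for genotype were Ezhip, an inhibitor of Ezh2, with 0.88 (SE 0.42), Phf1, a relative of Mtf2, with 0.34 (SE 0.26), and the DNA-binding cofactor Aebp2 with 0.18 (SE 0.15). The lines did not overlap for Ezhip and Aebp2, both with higher knockout-labelled arrays, against 2.1% of all probe sets wholly above. Ezhip was dim, at a mean log2 of 7.08. Its second J1 array without LIF gave 5.40 and the other J1 arrays 6.98 to 7.14, against 7.17 to 8.21 in knockout-labelled cells. For LIF withdrawal they were Ezhip with -0.65 (SE 0.42), Ezh1, and Phf1 with -0.16 (SE 0.26).

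Of 24 further complex 1 genes 23 were measured and 0 were called. The median genotype difference was -0.02 and the median LIF difference 0.06, with 18 positive and 5 negative for LIF, against -0.0053 and 49.0% positive over all genes. For genotype the smallest p belonged to Scml2 at 0.50 (SE 0.25), the corepressor Bcor at -0.34 (SE 0.28) and Auts2 at 0.27 (SE 0.22). For LIF they were Cbx8, a relative of Cbx7, at -0.88 (SE 0.37), E2f6 at 0.31 (SE 0.20) and Bmi1, a partner of the ligases, at 0.33 (SE 0.22). Cbx8 was dim, at a mean log2 of 6.38. Yaf2, the relative of Rybp, had -0.08 (SE 0.23) for genotype and 0.05 (SE 0.23) for LIF.

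Among 12 enzymes that oppose Polycomb marks and recruiting factors, 0 were called. Asxl2, a cofactor of the H2A deubiquitinase Bap1, had a genotype difference of 0.47 (SE 0.17), with an adjusted p from limma of 0.917. Its lines did not overlap, against 2.1% of all probe sets wholly above in the knockout-labelled cells. Kmt2a and Kmt2d, which methylate histone H3 at lysine 4, had -0.14 (SE 0.15) and -0.18 (SE 0.19). The same 2 genes and Asxl1 had the smallest p for LIF, at 0.27 (SE 0.15), 0.18 (SE 0.19) and 0.16 (SE 0.19). For Kmt2a the arrays with and without LIF did not overlap, against 1.02% of all probe sets wholly above without LIF. Yy1 itself differed by 0.0031 (SE 0.21) for genotype and -0.0036 (SE 0.21) for LIF.

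Developmental genes known as Polycomb targets came last. Of 30 listed, 27 were measured and 0 were called, and their averaged differences ran from -1.33 to 1.29 for genotype and from -1.69 to 0.85 for LIF. At an unadjusted p under 0.05 there were 3 of 27 for genotype and 2 of 27 for LIF, against 4.63% and 3.22% of all genes. The genotype values had a median of -0.20, with 12 positive and 15 negative. The median was 0.43 with LIF, with 18 positive and 9 negative, and -0.44 without LIF, with 10 positive and 17 negative. The interaction had a median of -0.64, against -0.0036 over all genes, with 0 called. Many of these genes were dim, with mean log2 levels from 3.32 for Olig2 to 9.56 for Hoxa5, and Sox17 at 6.42. How far background enters these medians is unknown. Sox17, an endoderm factor, had an averaged genotype difference of 0.84 (SE 0.19) with no overlap of the lines, and Pax6, a neural factor, had -0.56 (SE 0.21), also without overlap. Wt1 had -1.10 (SE 0.41). For genotype 2.1% of all probe sets lay wholly above and 1.74% wholly below. For LIF withdrawal the smallest p belonged to Nkx2-2 at -1.69 (SE 0.45), Tbx5 at -1.69 (SE 0.67) and Hoxd9 at 0.79 (SE 0.32), all at mean log2 levels under 6. Nkx2-2 was without overlap, against 1.33% of all probe sets wholly below without LIF. The adjusted p from limma for these 6 lay between 0.754 and 0.9999.

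**Figure D4:**
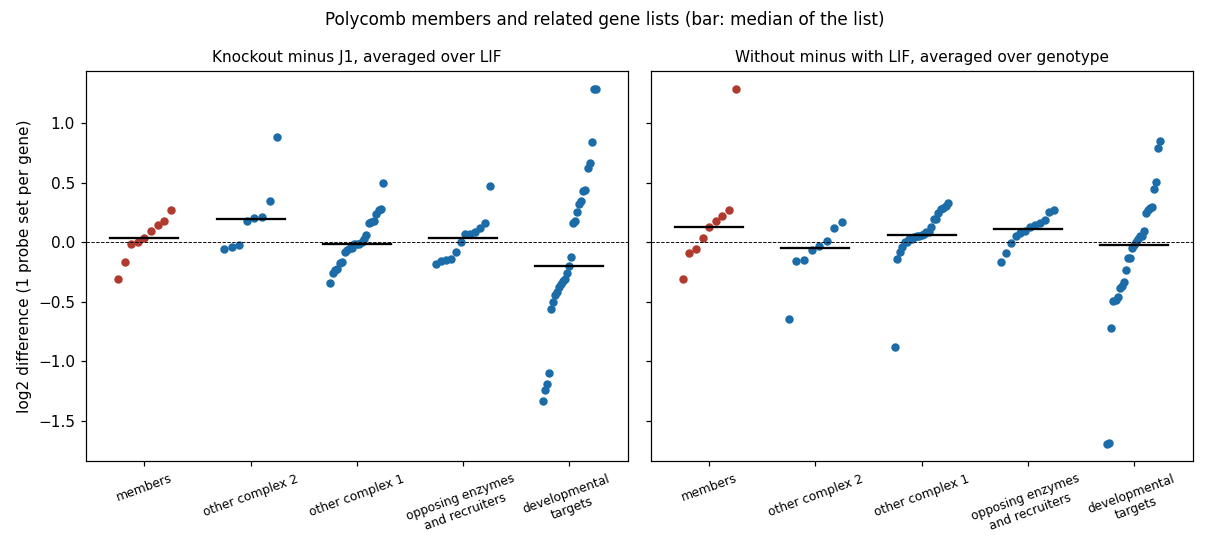
Log2 difference of 1 probe set per gene for the 9 Polycomb members and 4 related lists, knockout minus J1 (left) and without minus with LIF (right), each averaged over the other factor (bars, medians). Ring1 is the member farthest from 0, at 1.28 for LIF. Among the other complex genes the dim Ezhip (0.88 for genotype, mean log2 7.08) and Cbx8 (-0.88 for LIF, mean log2 6.38) lie far out. The developmental targets run from -1.69 to 0.85 for LIF.

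Phf19 had the widest range of group means, 0.45 log2 units, among members with a mean log2 of at least 8. Its profile over the 8 arrays, centred on its mean, was set against 8364 genes of at least that level. The smallest root mean square differences were 0.072 for Ccnjl, 0.077 for Trim32, 0.097 for Samd4b, 0.099 for Hsd17b11 and 0.11 for Plekhb2, with a median of 0.33 over all genes. Like Phf19, all 5 were highest on the second knockout-labelled arrays, which follows from their choice by likeness to its profile. The nearest other member was Cbx7, at 0.25 and rank 1249.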

How the data were processed

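RNA from 8 samples was hybridised to single-colour Affymetrix arrays. Each deposited value is a signal intensity on a linear scale. GCRMA appears among the tools of the submitters' processing notes, without version or role, and how the values were made is otherwise unknown. Without detection calls, how much of a dim value is background is unknown. Precision is limited by the 2 arrays per group.

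From 45101 probe sets 64 controls were left out. Symbols came from the platform annotation: 34945 probe sets had 1 symbol, 932 had several and 9160 had none listed here. Intensities were taken to log2 with no pseudocount, and probe sets with a log2 of at least 4 on at least 2 arrays were kept. A model of 4 group means was fitted to all arrays with limma 3.58.1 (R 4.3.3), using eBayes without trend and Benjamini-Hochberg adjustment within each of 7 contrasts. It was run on simulated data with independent noise and planted shifts larger than the averaged differences of the bright Polycomb probe sets. That run does not show whether changes of their size would be called. Figures used matplotlib 3.10.9 in Python 3.11.15.

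The members, lists and tests were chosen with earlier results of these data known. Named were every member, Zfp42, Yy1, Ezh1 and Yaf2, and per list other than the markers the called genes or else the 3 of smallest unadjusted p for averaged genotype and for averaged LIF withdrawal. The 5 genes closest to the member of widest range were also named. Arrays of one group shared at most 1 identical value. Alternatives covered the filter, scaling, pseudocount, variance prior, arrays in the fit, a replicate block for the letter r, the probe sets per gene and each array left out.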

Additional observations from a re-analysis of the deposited data

How the results depend on the processing

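In every alternative run, 0 Polycomb probe sets were called in any contrast, and the smallest adjusted p from limma for the 18 averaged differences of the 9 genes was 0.531. Over all probe sets the averaged genotype count was 0 as reported. It was 1 with a trended and robust prior, and 2 when a replicate block for the letter r was joined to a minimum mean log2 of 7, a setting chosen after seeing the data; the cause was not tested. The labels do not say that the letter pairs arrays, so no pairing was assumed. The array differences correlated between groups at 0.05 to 0.20 over all tested probe sets. At a mean log2 of at least 10, the level of 15 of the 29 Polycomb probe sets, they correlated at 0.32 to 0.77. The main fit leaves such shared differences in its spread. For Ezh2 the genotype SE was 0.17 in the main fit, 0.13 with the block and 0.0995 with the minimum added. For the dim Suz12 1420020_at it was 0.54, 0.58 and 0.51. With the block the Eed LIF difference of -0.31 had an adjusted p from limma of 0.929, and of 0.719 with the minimum added. The Cbx7 1420039_s_at genotype difference of -0.60 had 0.626 and 0.279, and that of Suz12 1452364_at, 0.24, had 0.747 and 0.423. Unadjusted p from limma fell under 0.05 with the block for Cbx7 1420039_s_at (genotype, 0.016) and the dim Eed 1453830_at (LIF, 0.0245). With the minimum added it did for Cbx7 1420039_s_at (0.0037) and Suz12 1452364_at (0.0448) for genotype. For LIF it then did for Eed 1448653_at (0.0238) and Cbx7 1433557_at (0.0435). The share over all probe sets at these settings is not given here.

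Of 162 alternative values, 12 changed sign, all uncalled. For genotype these were Jarid2 (0.0104) and Mtf2 (0.02) with quantile normalization, Cbx7 (-0.0404) with median centring, and, with the mean of a gene's probe sets, Jarid2 (0.0483), Mtf2 (0.0604), Rnf2 (0.0702) and Cbx7 (-0.258). For LIF withdrawal they were Mtf2 (0.0029) with quantile normalization and, with the mean of probe sets, Eed (0.2677), Mtf2 (0.0392), Phf19 (-0.0934) and Rnf2 (0.0684). Leaving out each array in turn changed the sign of 6 differences. The ranges for genotype were -0.0527 to 0.0525 for Jarid2, -0.149 to 0.125 for Mtf2, -1.11 to 0.50 for Ring1 and -0.10 to 0.18 for Cbx7. For LIF they were -0.0533 to 0.131 for Ezh2 and -0.196 to 0.0784 for Mtf2. The Ring1 LIF difference ranged from 0.48 to 2.09 with 1 array left out at a time, and leaving out both low second arrays was not run.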
